A study of Mus musculus with 12 samples.

Results

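Interferon response genes are the genes that a cell switches on when interferon binds its receptors. Type I interferon acts through the kinases JAK1 and TYK2 and a factor that contains STAT2 and IRF9, which binds a promoter element called ISRE. Type II interferon acts at an element called GAS. The products of these genes sense viral RNA and DNA, block steps of the viral life cycle and load peptides for T cells, and in bone marrow interferon is also known to act on stem cells. A set of 45 such genes was followed here, chosen by name, and each was measured by the brightest probe set that carries its symbol alone. The rule could be applied to 41 of them, out of 19938 genes measured in this way. Isg15, Gbp2 and Igtp were dropped because their probe sets carry several symbols, and no probe set matched Ifi44.

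The cells were bone marrow cells of adult C57/BL6/C3H mice that had received 5-Fluorouracil, a drug that kills dividing cells and enriches stem and progenitor cells, 4 days earlier. Each culture then took up 1 of 4 constructs by retrovirus, and every construct has 3 biological replicates: the empty vector MIG, which is the study's baseline; the leukaemia fusion CALM-AF10; the same fusion lacking the OM-LZ part (CALM-AF10 ΔOM-LZ); or CALM(400-648)+AF10 (677-758), a fusion of short fragments here called the minimal fusion. Every group, MIG included, was stimulated for 48 h and then laid over irradiated (40 Gy) GFP+E86 cells that release the virus, in cytokines plus 5 µg/ml of protamine sulfate. After more culture GFP-positive cells were sorted, and RNA was taken 96 h after transduction. All 12 arrays are therefore from cells exposed to retrovirus, and no level in cells without virus was analysed here. The labels do not say whether animals were pooled or what a replicate number shares between constructs, so p-values measure the spread between these cultures.

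The values are log2 intensities, so a difference of 1 is a doubling. Intensities of different genes are not compared, since probe sets differ in brightness for the same amount of RNA. A gene is called dim where its mean over the arrays lay below 6.62, the median of all probe sets. Of the 41 genes 9 were dim (22%, against 45.4% of all genes): Ddx60, Ifit1, Ifit2, Ifit3, Oas3, Rsad2, Mx1, Mx2 and Xaf1. Of the markers of cell types in marrow, none was dim among 5 of neutrophil primary granules, 7 of stem and progenitor cells, 7 of mast cells and basophils and 6 of megakaryocytes, while all 7 T and NK cell markers and 4 of 5 B cell markers were dim.

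The interferon response genes differed widely between cultures of the same construct and did not differ detectably between constructs. The mean over the 41 genes, as deviation from each gene's mean over all arrays, was -0.05, -0.01 and 0.45 in MIG replicates 1, 2 and 3. It was 0.26, -0.31 and 0.07 in CALM-AF10, 0.14, -0.42 and -0.10 in ΔOM-LZ and 0.24, -0.16 and -0.12 in the minimal fusion. MIG replicate 3 was thus the highest array and ΔOM-LZ replicate 2 the lowest, the replicates of each construct spread over more than the distance between any group means, and all groups overlapped. Group means ran from -0.12 (SD 0.28, n = 3) in ΔOM-LZ to 0.13 (SD 0.28, n = 3) in MIG. Of the variance of this mean, 14.4% lay between constructs.

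**Figure D1:**
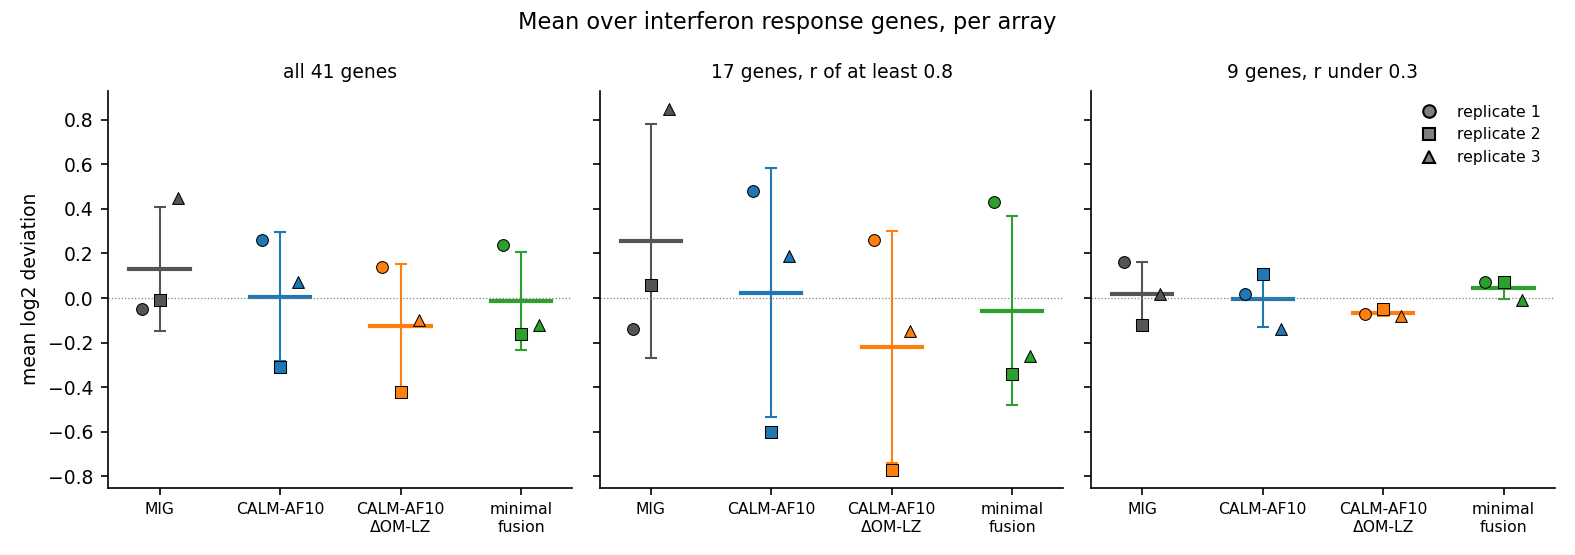
Mean log2 deviation per array (vertical axis) for all 41 interferon response genes, for the 17 genes with r of at least 0.8 with the other members and for the 9 with r under 0.3; marker shape gives the replicate number, horizontal bars the mean and error bars the SD of 3 arrays. In the 17 genes the arrays run from -0.77 (ΔOM-LZ replicate 2) to 0.85 (MIG replicate 3), and in the 9 genes they stay between -0.14 and 0.16. The 17 and the 9 genes were picked by r on these same arrays, so their contrast follows from the choice.

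No gene of the set passed an adjusted p of 0.05 in any of the 6 comparisons of constructs or in the F test over the 4 constructs (limma, adjusted over 23410 probe sets). The smallest adjusted p in the F test was 0.912 (Gbp3), and 2 of 41 genes had an unadjusted p under 0.05 there (4.88%, against 4.3% of all probe sets). Among all probe sets, the share past the adjusted threshold was 0.0342% for the minimal fusion against MIG, 0.0171% for the minimal fusion against ΔOM-LZ, 0.00427% for the minimal fusion against CALM-AF10, 0.00854% in the F test and 0% in the other comparisons. Counted at an unadjusted p under 0.05, 3 of 41 genes differed between the minimal fusion and MIG (7.32%, against 7.61% of all probe sets), 2 between CALM-AF10 and MIG (4.88%, against 5.26%) and 0 between ΔOM-LZ and MIG (0%, against 3.96%). Between the fusions these counts were 3 for the minimal fusion against ΔOM-LZ (7.32%, against 4.1%), 1 for CALM-AF10 against ΔOM-LZ (2.44%, against 2.26%) and 0 for the minimal fusion against CALM-AF10 (0%, against 1.8%). A variance model with trend and robust settings also called 0 of the 41 genes at the adjusted threshold in each comparison.

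Against MIG most of the 41 genes stood lower in each fusion, by small amounts. The median log2 fold change was -0.15 for CALM-AF10, with 29 genes lower and 12 higher, -0.22 for ΔOM-LZ, with 36 lower and 5 higher, and -0.12 for the minimal fusion, with 27 lower and 14 higher. Over all genes the median was 0.01 in each of these comparisons. The comparisons share the MIG arrays. For CALM-AF10 and the minimal fusion the values rest on MIG replicate 3: without it the medians were 0.06 and 0. For ΔOM-LZ the median was -0.12 without MIG replicate 3, and it ran from -0.36 to -0.11 when each array in turn was left out.

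The widest spread belonged to Usp18, which encodes the protease that removes ISG15 from proteins and dampens signalling at the type I interferon receptor. Its log2 value was 8.11, 8.66 and 10.33 in MIG replicates 1 to 3, 9.59, 6.74 and 8.66 in CALM-AF10, 9.39, 6.54 and 7.81 in ΔOM-LZ, and 9.15, 8.13 and 7.61 in the minimal fusion. The highest and lowest of these arrays differed 13.9-fold, both ends of that span lay in different constructs, and within CALM-AF10 and ΔOM-LZ replicate 1 was high and replicate 2 low. The log2 fold change of the minimal fusion against MIG was -0.74 (SE 0.87, 95% interval -2.65 to 1.18, adjusted p = 0.881), so both a fall of several fold and a doubling lie inside the interval.

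Of the other genes that add or remove ISG15, ubiquitin or ADP-ribose, Herc6, the mouse ISG15 ligase gene, spanned 3.38-fold, Parp9 2.66-fold, Parp14 2.57-fold and Dtx3l 2.21-fold. PARP9 and DTX3L work as a pair, and their log2 values followed each other over the 12 arrays (r = 0.93). That r is not particular to them, since Parp14 followed Dtx3l (r = 0.95) and Usp18 followed Xaf1 (r = 0.97) as closely. For Herc6, Parp9, Parp14 and Dtx3l alike the lowest array was ΔOM-LZ replicate 2. Trim25, an E3 ligase gene that activates the RNA sensor RIG-I, moved less: it lay at 9.42, 9.38 and 9.41 in MIG, 9.62, 9.42 and 9.78 in CALM-AF10, 9.49, 9.11 and 9.48 in ΔOM-LZ and 9.47, 9.48 and 9.33 in the minimal fusion. All CALM-AF10 arrays were above all MIG arrays for Trim25, by 0.20 in the mean (SE 0.13, adjusted p = 1). The separation is slight, since CALM-AF10 replicate 2 and MIG replicate 1 both round to 9.42.

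**Figure D2:**
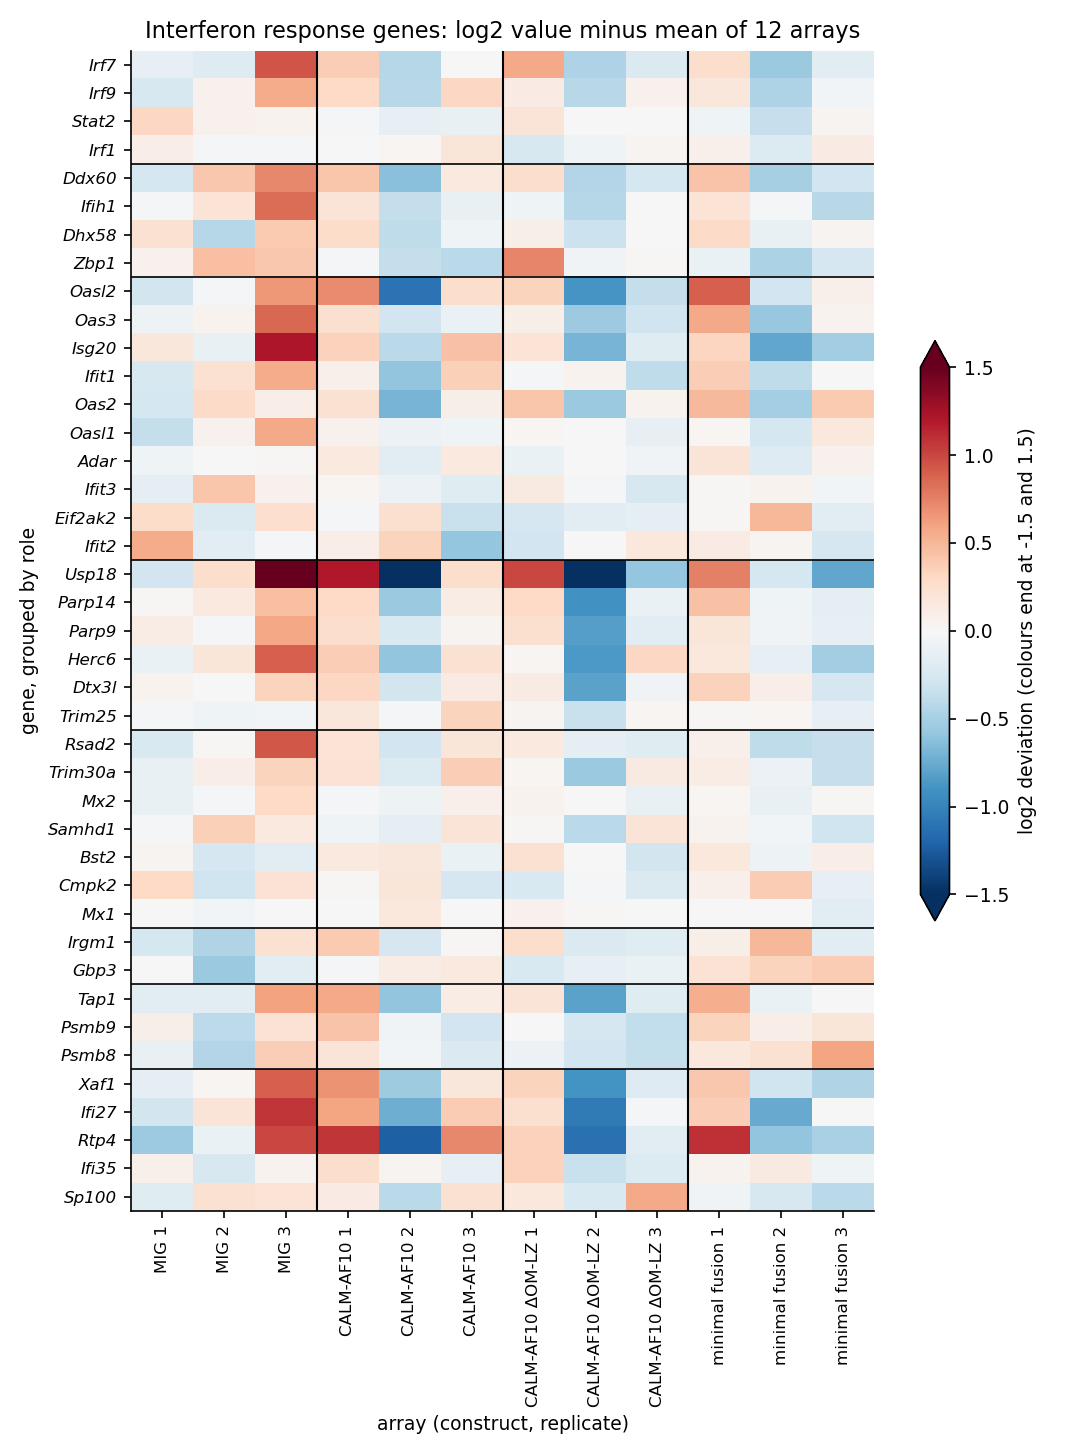
Log2 value of each of the 41 genes (rows, grouped by role) minus its mean over the 12 arrays (columns, by construct and replicate); colours end at -1.5 and 1.5. MIG replicate 3 is the highest array for 18 genes and ΔOM-LZ replicate 2 the lowest for 13.

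Among the transcription factors, Irf7 and Irf9 varied and Irf1 and Stat2 did not follow them. Irf7, which amplifies type I interferon production, was 6.53, 6.46 and 7.59 in MIG, 7.02, 6.22 and 6.65 in CALM-AF10, 7.22, 6.19 and 6.44 in ΔOM-LZ and 6.92, 6.09 and 6.49 in the minimal fusion. Replicate 2 was the lowest array of each construct, and MIG replicate 3 the highest of all. Irf9, the DNA-binding part of the ISRE-binding factor, ran from 8.37 to 9.39. Stat2, its partner, was 8.78, 8.54 and 8.52 in MIG, 8.45, 8.35 and 8.36 in CALM-AF10, 8.67, 8.47 and 8.48 in ΔOM-LZ and 8.41, 8.13 and 8.51 in the minimal fusion. Every MIG array lay above every CALM-AF10 and minimal fusion array for Stat2, with a log2 fold change of -0.27 for the minimal fusion (SE 0.12, adjusted p = 0.646). Irf1, a factor of the type II response, stayed between 8.17 and 8.59, and its dimmer probe set between 6.53 and 6.92.

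The sensors of viral nucleic acid split in the same way. Ddx60, a helicase gene that aids RIG-I, was 5.02, 5.69 and 6.0 in MIG, 5.70, 4.66 and 5.43 in CALM-AF10, 5.55, 4.84 and 5.02 in ΔOM-LZ and 5.71, 4.78 and 4.99 in the minimal fusion. As for Irf7, MIG replicate 3 was the highest array and replicate 2 the lowest of each fusion. Ifih1, which encodes the long RNA sensor MDA5, spanned 2.41-fold and Dhx58, its regulator LGP2, 1.76-fold. Zbp1, a sensor of left-handed nucleic acid that triggers cell death, sorted more by construct. It was 7.18, 7.57 and 7.52 in MIG, 7.09, 6.76 and 6.71 in CALM-AF10, 7.85, 7.06 and 7.13 in ΔOM-LZ and 7.01, 6.64 and 6.86 in the minimal fusion.

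For Zbp1 every array of CALM-AF10 and of the minimal fusion lay below every MIG array, and every minimal fusion array lay below every ΔOM-LZ array. The log2 fold change against MIG was -0.57 for CALM-AF10 (SE 0.21, adjusted p = 0.838), -0.59 for the minimal fusion (SE 0.21, adjusted p = 0.555) and -0.08 for ΔOM-LZ (SE 0.21, adjusted p = 0.999). None passed. Of the variance of Zbp1, 58.5% lay between constructs, where the median gene of the set had 20.3% and the median of all genes 22.2%.

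RNA-binding effectors included genes of wide and of narrow range. Isg20, an RNA exonuclease gene, was 9.63, 9.36 and 10.68 in MIG, 9.81, 9.06 and 9.91 in CALM-AF10, 9.67, 8.77 and 9.28 in ΔOM-LZ and 9.79, 8.69 and 8.94 in the minimal fusion. The groups overlapped, and the minimal fusion differed from MIG by -0.75 (SE 0.40, adjusted p = 0.706). Oasl2, an OAS-like gene, was 7.43, 7.68 and 8.35 in MIG, 8.41, 6.60 and 7.96 in CALM-AF10, 8.04, 6.82 and 7.34 in ΔOM-LZ and 8.60, 7.41 and 7.78 in the minimal fusion. Here minimal fusion replicate 1 was the highest array and CALM-AF10 replicate 2 the lowest. Oas3, which makes the activator of RNase L, spanned 2.70-fold, Oas2 2.28-fold and Ifit1, which binds RNA with a foreign cap, 2.22-fold. Adar, the RNA-editing enzyme gene, spanned 1.31-fold, and Ifit3, a partner of IFIT1, 1.57-fold.

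Genes that block entry, nucleotide supply or release of viruses ranged over 0.33 (Mx1) to 1.32 (Rsad2) log2 units, and their mean over 0.42. Rsad2, which encodes viperin, a maker of a chain-terminating nucleotide, was 5.83, 6.08 and 6.99 in MIG, 6.26, 5.77 and 6.24 in CALM-AF10, 6.20, 5.93 and 5.88 in ΔOM-LZ and 6.14, 5.68 and 5.71 in the minimal fusion. MIG replicate 3 stood apart from the other arrays, and the minimal fusion differed from MIG by -0.46 (SE 0.27, adjusted p = 0.734). Samhd1, which lowers the nucleotide pool that reverse transcriptase needs, ran from 10.21 to 10.97, and Bst2, which tethers budding virus to the cell, from 7.90 to 8.41. Trim30a, a mouse relative of the capsid-binding TRIM5, ran from 9.50 to 10.42. The Mx GTPase genes, which are defective in most laboratory mouse strains, were dim on all arrays, at 4.36 to 4.69 for Mx1 and 4.34 to 4.75 for Mx2.

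The interferon-inducible GTPase Gbp3, of a family that attacks the membranes around intracellular pathogens, was the member that sorted most by construct. It was 6.67, 6.11 and 6.50 in MIG, 6.63, 6.78 and 6.81 in CALM-AF10, 6.44, 6.54 and 6.57 in ΔOM-LZ and 6.88, 7.0 and 7.04 in the minimal fusion. Every minimal fusion array lay above every array of the other 3 constructs, and every CALM-AF10 array above every ΔOM-LZ array. The log2 fold change of the minimal fusion was 0.55 against MIG (1.46-fold; SE 0.13, adjusted p = 0.386), 0.46 against ΔOM-LZ (SE 0.13, adjusted p = 0.793) and 0.24 against CALM-AF10 (SE 0.13, adjusted p = 1). None passed over all probe sets. Constructs held 72.2% of the variance of Gbp3. Irgm1, which directs such GTPases and guards stem cells under interferon, was 7.98, 7.80 and 8.48 in MIG, 8.64, 8.0 and 8.27 in CALM-AF10, 8.51, 8.03 and 8.07 in ΔOM-LZ and 8.34, 8.75 and 8.09 in the minimal fusion. These groups overlapped.

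Of the genes that prepare peptides for MHC class I, the immunoproteasome subunit genes Psmb8 and Psmb9 stood highest in the minimal fusion. Psmb8 was 9.53, 9.20 and 10.00 in MIG, 9.83, 9.59 and 9.42 in CALM-AF10, 9.55, 9.35 and 9.28 in ΔOM-LZ and 9.79, 9.87 and 10.23 in the minimal fusion. The minimal fusion arrays were all above the ΔOM-LZ arrays and overlapped those of MIG, with log2 fold changes of 0.57 (SE 0.20, adjusted p = 0.999) and 0.39 (SE 0.20, adjusted p = 0.69). Tap1, a chain of the peptide transporter that is read from the same stretch of the MHC region, was 9.30, 9.30 and 10.08 in MIG, 10.04, 8.88 and 9.58 in CALM-AF10, 9.67, 8.67 and 9.29 in ΔOM-LZ and 10.02, 9.37 and 9.47 in the minimal fusion. Tap1 followed the arrays in the way Usp18 did, with MIG replicate 3 highest and ΔOM-LZ replicate 2 lowest.

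**Figure D3:**
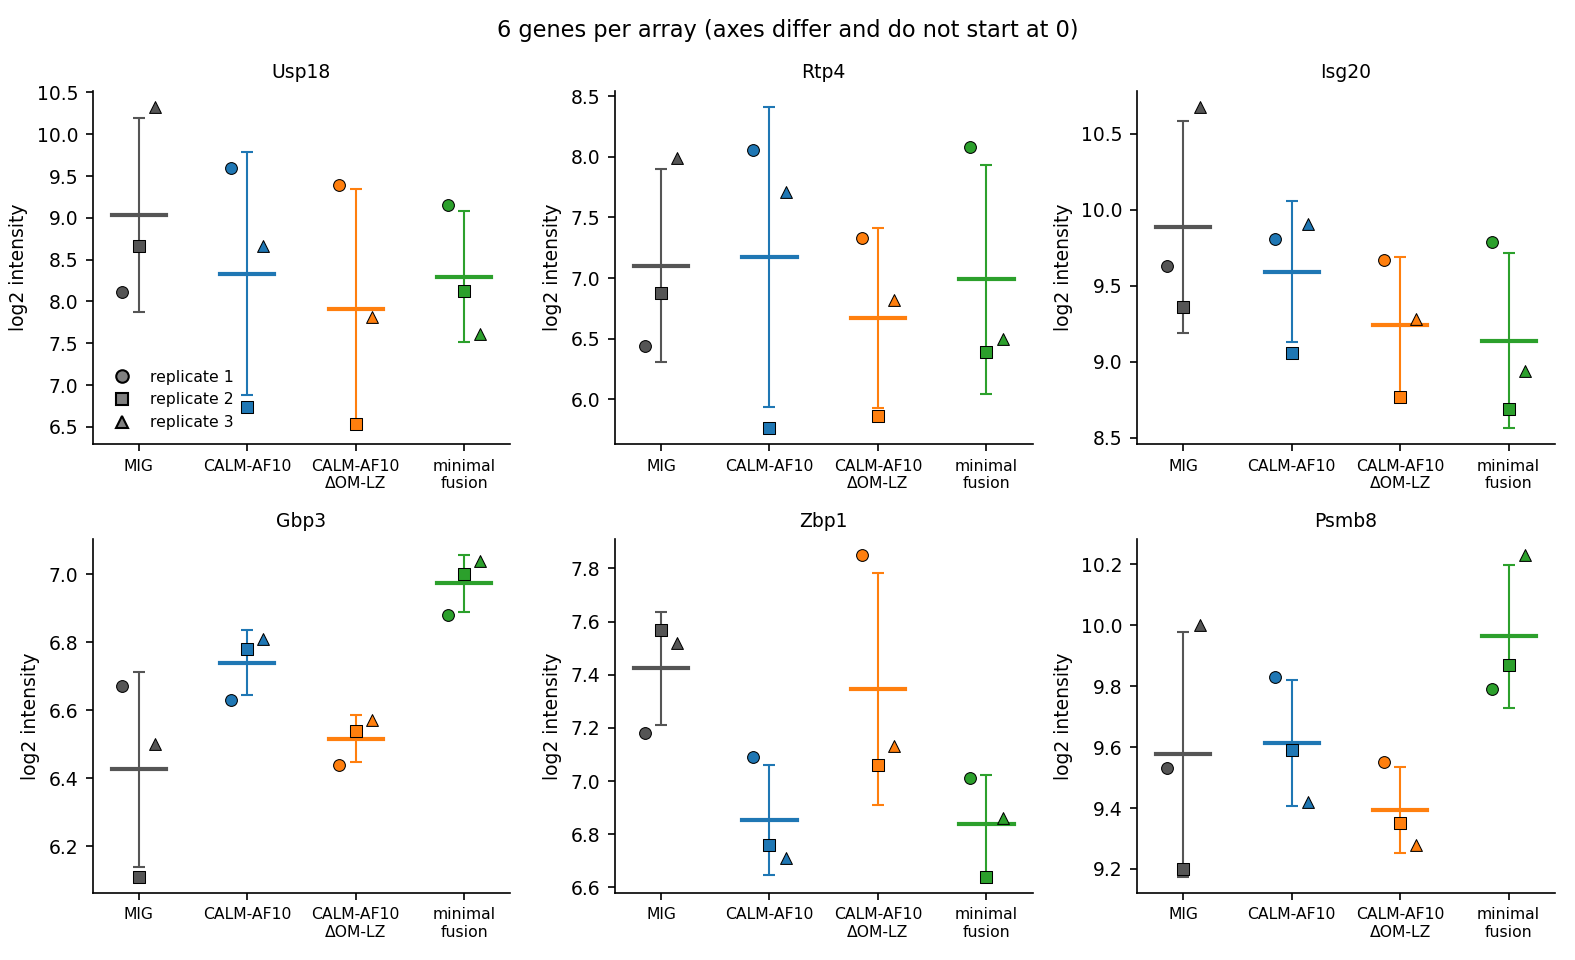
Log2 intensity per array of 6 genes, by construct; marker shape gives the replicate number, horizontal bars the mean and error bars the SD of 3 arrays, and axes differ and do not start at 0. Usp18 runs from 6.54 to 10.33 with replicates of 1 construct far apart, while for Gbp3 the 3 minimal fusion arrays (6.88 to 7.04) lie above all others.

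Genes whose groups did not overlap were a smaller share of the set than of all probe sets in 5 of the 6 comparisons. For CALM-AF10 against MIG they were Trim25 above (1 gene, against 6.04% of all probe sets) and Stat2 and Zbp1 below (2 genes, against 3.26%), together 7.32% against 9.31%. For ΔOM-LZ against MIG there were 0 above (3.57%) and 0 below (4.47%), against 8.04% either way. For the minimal fusion against MIG they were Gbp3 above (6.08%) and Stat2 and Zbp1 below (6%), together 7.32% against 12.1%. Between the fusions the count was largest for the minimal fusion against ΔOM-LZ. CALM-AF10 stood apart from ΔOM-LZ for Gbp3 above (4.66%) and Stat2 below (2.09%), together 4.88% against 6.76%. The minimal fusion stood apart from ΔOM-LZ for Gbp3, Psmb8 and Psmb9 above (3.7%) and Zbp1 and Mx1 below (4.09%), together 12.2% against 7.78%. It stood apart from CALM-AF10 for Gbp3 above (2.06%) and for 0 genes below (3.32%), together 2.44% against 5.38%.

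Of the remaining genes, Rtp4, a chaperone gene of receptor transport with antiviral activity, was 6.44, 6.88 and 7.99 in MIG, 8.06, 5.76 and 7.71 in CALM-AF10, 7.33, 5.86 and 6.82 in ΔOM-LZ and 8.08, 6.39 and 6.50 in the minimal fusion. Its highest and lowest arrays differed 4.99-fold. Ifi27 spanned 4.38-fold and Xaf1, which promotes cell death, 3.46-fold. Sp100, a gene of nuclear bodies that silence viral genomes, was 9.19, 9.60 and 9.57 in MIG, 9.49, 8.96 and 9.60 in CALM-AF10, 9.53, 9.14 and 9.93 in ΔOM-LZ and 9.31, 9.13 and 8.96 in the minimal fusion. Its minimal fusion mean was the lowest of the 4 constructs and overlapped the others.

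Seen over arrays and not constructs, a large share of the set moved as a block. Each gene was compared with the mean of the other 40 over the 12 arrays by Pearson r. These r are descriptions of 12 arrays that share constructs, and carry no p. For 17 genes r was at least 0.8, for 15 it lay between 0.3 and 0.8, and for 9 it was under 0.3. The mean r over all pairs of the set was 0.33, and over all pairs of genes measured 0.03. Both are means of signed r, in which pairs that ran in opposite directions offset each other. The pattern was not confined to the set: of other genes 3.5% had r of at least 0.8 with its mean and 4.09% had -0.8 or below. With construct means removed the mean r of the set was 0.34, so the shared pattern lay within constructs. The median gene of the set ranged over 1.02 log2 units and the median of all genes over 0.58.

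The block was led by Xaf1 (r = 0.98), Usp18 (0.97), Tap1 (0.96), Ifi27 (0.94), Rtp4 (0.93) and Parp14 (0.93), followed by Oasl2, Ddx60, Irf7 and Parp9 (each 0.91), Irf9 and Oas3 (0.89), Isg20 (0.88), Herc6 and Dtx3l (0.87), Ifih1 (0.84) and Rsad2 (0.80). Outside it stood Stat2 (0.19), Ifit3 (0.23), Irf1 (0.04), Bst2 (-0.02), Eif2ak2 and Cmpk2 (both -0.04), Mx1 (-0.16), Gbp3 (-0.20) and Ifit2 (-0.22). Mx1, Ifit2 and Ifit3 are dim, and the other 6 are not. Eif2ak2, which encodes the kinase PKR that halts translation, and Cmpk2, a mitochondrial nucleotide kinase gene, followed each other (r = 0.96) without following the rest; both were highest in minimal fusion replicate 2, at 8.64 and 7.29. That pair was singled out after the values were seen. The mean of the 17 genes spanned 1.63 log2 units over the arrays and that of the 9 genes 0.30. Both groups were picked by r on these same arrays, so this contrast follows from the choice.

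**Figure D4:**
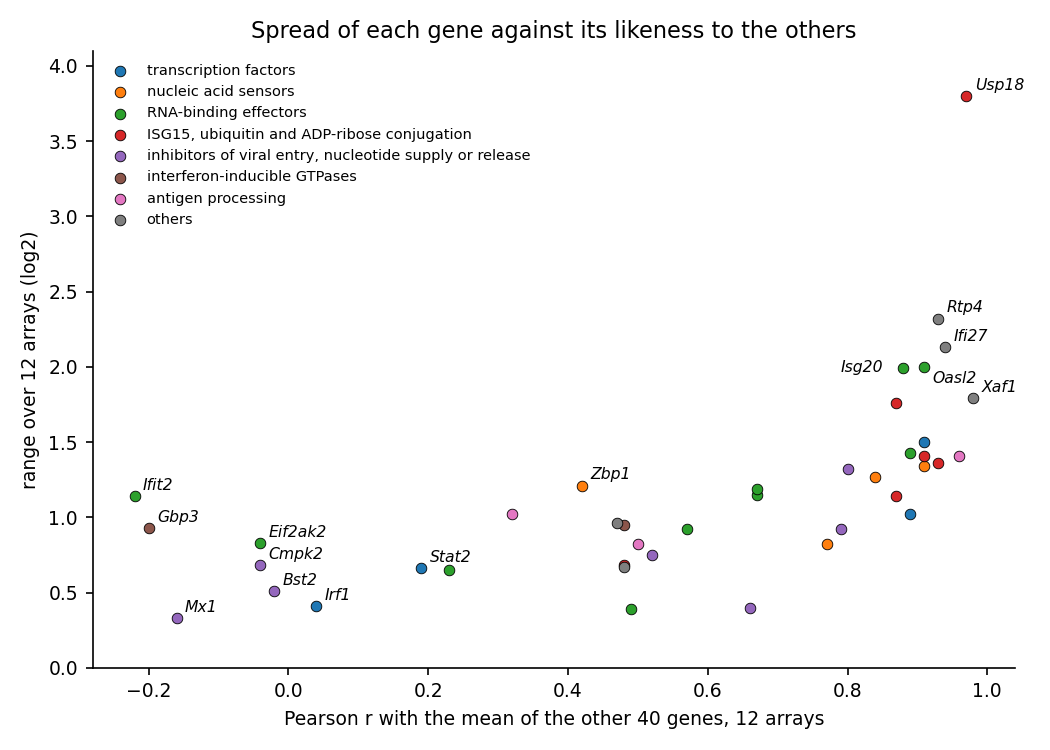
Range of each of the 41 genes over the 12 arrays in log2 units (vertical axis) against its Pearson r with the mean of the other 40 genes (horizontal axis), coloured by role. Usp18 (r = 0.97, range 3.80) lies apart at the upper right, and Gbp3, Ifit2 and Mx1 lie at the left.

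Promoter sequence was set beside this split, since members that move together may share elements. RefSeq promoters (GRCm38.p6; 250 bases before to 50 after the start) were at hand for 31 of the 41 genes; Dhx58, Ifi27, Mx1, Mx2, Oas2, Parp14, Parp9, Rtp4, Usp18 and Zbp1 had no entry in the table. The ISRE core was searched as GAAANNGAAA or its complement TTTCNNTTTC, and GAS as TTCNNNGAA, which reads the same on both strands. An ISRE core was found for 12 of the 31 genes (38.7%, against 3.99% of all genes in the table) and a GAS match for 9 (29%, against 9.55%). In the promoter of Bst2 the matches overlap. The genes were chosen as interferon-induced, so an excess over all genes is no independent observation.

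The ISRE core was found both inside and outside the block. It was present for 4 of the 12 genes with r of at least 0.8 that have a promoter entry, for 3 of 11 with r between 0.3 and 0.8, and for 5 of 8 with r under 0.3. Of the 17 block genes 5 have no promoter entry. In the sequences below, the first 3 lines are promoters of the block, and the next 4 are promoters of genes outside it. All are shown with an ISRE core in capitals, 5′ to 3′ on the strand of the gene. The fragments of Bst2 and Gbp3 each hold a further core that overlaps the marked core and is partly in lower case. It starts 124 bases before the start for Bst2 and 39 bases before for Gbp3.
Ddx60 (chr8:61928014-61928063, plus strand, core 53 bases before the start): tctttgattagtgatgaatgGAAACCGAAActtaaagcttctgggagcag
Oas3 (chr5:120777705-120777754, minus strand, 75 bases before): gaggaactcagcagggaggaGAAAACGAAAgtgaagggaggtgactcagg
Rsad2 (chr12:26456543-26456592, minus strand, 120 bases before): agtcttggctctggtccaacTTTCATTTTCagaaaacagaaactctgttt
Ifit3 (chr19:34583353-34583402, plus strand, 156 bases before): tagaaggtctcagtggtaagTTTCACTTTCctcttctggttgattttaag
Bst2 (chr8:71537573-71537622, minus strand, 130 bases before): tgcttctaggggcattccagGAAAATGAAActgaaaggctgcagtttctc
Gbp3 (chr3:142559979-142560028, plus strand, 45 bases before): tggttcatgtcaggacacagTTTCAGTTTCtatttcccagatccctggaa
Stat2 (chr10:128270256-128270305, plus strand, 222 bases before): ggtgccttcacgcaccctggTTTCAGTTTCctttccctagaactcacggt

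GAS matches were found for 1 of the 12 block genes, Isg20, for 4 of 11 in the middle range and for 4 of 8 with r under 0.3. The 3 shown, with the match in capitals, are of Irf1 and Psmb8, whose values did not follow the block closely, and of Isg20, whose values did.
Irf1 (chr11:53769904-53769952, plus strand, 90 bases before the start): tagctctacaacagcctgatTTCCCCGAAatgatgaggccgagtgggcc
Psmb8 (chr17:34198078-34198126, plus strand, 97 bases before): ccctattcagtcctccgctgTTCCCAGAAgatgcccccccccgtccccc
Isg20 (chr7:78913331-78913379, plus strand, 73 bases before): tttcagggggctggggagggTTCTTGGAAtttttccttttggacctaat
A match says only that these letters are in the window, and no match says nothing about binding farther away.

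The replicate number carried part of the pattern. For the median gene it held 28.6% of the variance in the set and 22.2% over all genes. It held 45.8% of the variance of the mean over the 41 genes. In each of the fusions replicate 1 was the highest array of this mean and replicate 2 the lowest, but in MIG replicate 3 was the highest and replicate 1 the lowest. Over all genes, the deviations of same-numbered CALM-AF10 and ΔOM-LZ arrays from their group means correlated at 0.72, 0.79 and 0.63, and no lower with the 41 genes left out. In no other comparison did all 3 same-numbered pairs exceed 0.1.

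The labels do not say that same-numbered arrays are paired, and the pairing was adopted because these data showed it. Within these pairs CALM-AF10 stood a little above ΔOM-LZ. The mean over the 41 genes was higher in CALM-AF10 by 0.12, 0.11 and 0.17 for replicates 1, 2 and 3. Of the 41 genes 15 were higher in CALM-AF10 in all 3 pairs (36.6%, against 22.8% of all genes) and 3 lower in all 3 (7.32%, against 15.8%). Many of the genes moved together, so these counts and those of the paired fit below are not 41 separate observations of a difference. Xaf1 was higher by 0.35, 0.35 and 0.36, Ifi27 by 0.34, 0.32 and 0.41, Tap1 by 0.37, 0.21 and 0.29 and Gbp3 by 0.19, 0.24 and 0.24. Zbp1 was lower, by -0.76, -0.30 and -0.43. In the paired limma fit of these 6 arrays, which leaves 2 residual degrees of freedom, 0 of the 41 genes passed; the smallest adjusted p was 0.231 (Xaf1), and 14 had an unadjusted p under 0.05 (34.1%, against 14.2% of all probe sets). In the unpaired fit the median log2 fold change was 0.14, with 35 genes higher and 6 lower, and it was 0.02 without CALM-AF10 replicate 1.

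**Figure D5:**
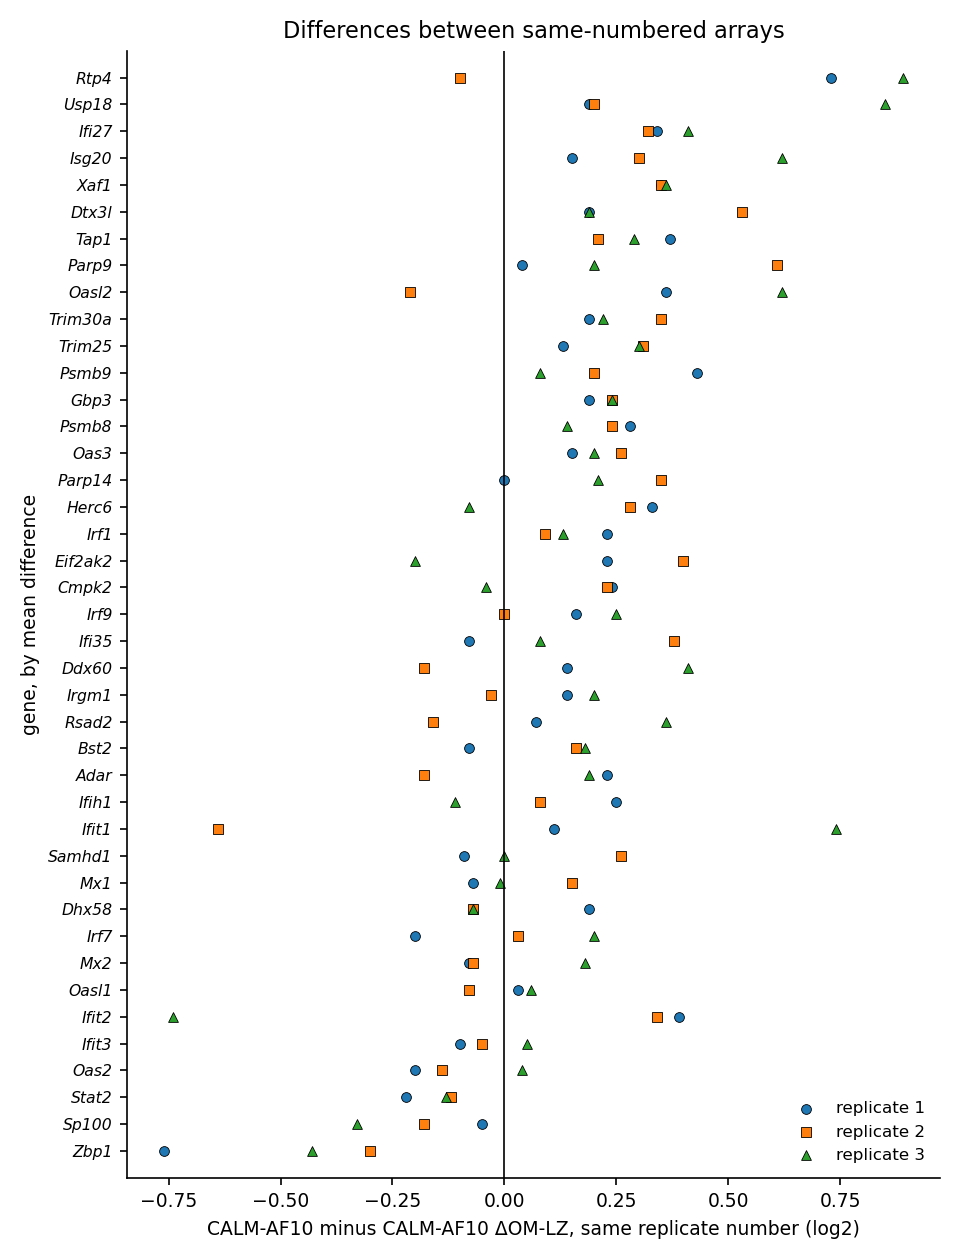
Log2 difference between CALM-AF10 and CALM-AF10 ΔOM-LZ arrays of the same replicate number (horizontal axis) for each of the 41 genes (rows, ordered by mean difference); marker shape and colour give the replicate number. The 3 markers of Xaf1, Ifi27 and Tap1 lie to the right of 0 and those of Zbp1 to the left.

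The minimal fusion stood above ΔOM-LZ by a median of 0.09, with 31 genes higher and 10 lower, and differed from CALM-AF10 by a median of -0.02, with 17 higher and 24 lower. Without ΔOM-LZ replicate 2, the lowest array, the median against ΔOM-LZ was -0.03. Medians over all genes were 0.00 and -0.01.

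The interferon genes themselves were mostly dim. Of 16 ligand genes measured 13 were dim, and 0 differed between constructs at the adjusted threshold, nor did any at an unadjusted p under 0.05. Ifnb1 stayed between 4.78 and 5.05, and Ifng between 5.75 and 6.17 with its lowest value in MIG replicate 3. The Ifna genes are close copies, and their probe sets can share signal. The genes of the type I receptor chains were not dim, with Ifnar1 at 9.07 to 9.64 and Ifnar2 at 10.76 to 11.65, while Ifnlr1, of the type III receptor, was dim at 5.35 to 5.92. Of the 10 receptor and JAK-STAT genes measured, 0 passed in either direction. Tyk2 and Jak2, a kinase of the type II and cytokine receptors, had the lowest statistics of this list for the minimal fusion against MIG, with log2 fold changes of -0.24 (SE 0.08, adjusted p = 0.549) and -0.71 (SE 0.25, adjusted p = 0.555).

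Upstream sensors and adaptors (17 measured), negative regulators (12), other interferon-induced genes (63) and retroviral restriction factors (15) likewise had 0 members past the threshold in either direction in all 6 comparisons. For the minimal fusion against MIG, Tnfaip3, which encodes the brake A20, had a log2 fold change of -0.99 (SE 0.29, adjusted p = 0.464), and Socs3 had -0.54 (SE 0.18, adjusted p = 0.544). The gene closest to the threshold among the other interferon-induced genes was Psme2, a chain of the proteasome activator PA28 that works with PSMB8. It was 10.58, 10.25 and 10.38 in MIG, 10.73, 11.18 and 11.16 in CALM-AF10, 10.84, 10.82 and 10.89 in ΔOM-LZ and 10.76, 11.07 and 11.04 in the minimal fusion. All 9 fusion arrays lay above all 3 MIG arrays, by 0.62 for CALM-AF10 (SE 0.14, adjusted p = 0.555), 0.45 for ΔOM-LZ (adjusted p = 0.999) and 0.56 for the minimal fusion (adjusted p = 0.394). Mov10, an RNA helicase gene that limits retroviruses, stood 0.52 higher in the minimal fusion than in ΔOM-LZ (SE 0.15, adjusted p = 0.785).

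Some genes outside the set shared the pattern of the block, and others ran against it. Of the 63 other interferon-induced genes 14 had r of at least 0.8 with the mean of the set, a larger share than the 3.5% of all genes outside it. Others of the 63 ran the other way, such as Znfx1 (r = -0.78) and Ifi30 (r = -0.74). Ddx58, the RIG-I gene, followed the mean of the set (r = 0.93) and ran from 8.45 in CALM-AF10 replicate 2 to 10.40 in MIG replicate 3. It is an upstream sensor, and of the 17 upstream sensors and adaptors 2 had r of at least 0.8. The mean of that list had r = -0.26 with the mean of the set, and Myd88, an adaptor gene of the list, had r = -0.89. Ube2l6, the conjugating enzyme for ISG15, followed the mean of the set too (r = 0.95) and ran from 6.84 in ΔOM-LZ replicate 2 to 9.13 in MIG replicate 3. Gbp4, with r = 0.73 below the limit of 0.8, was at 9.98 in MIG replicate 3 and between 5.48 and 6.52 on the other 11 arrays. The genes named in this paragraph were singled out after their values were seen.

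Some lists of cell type markers moved with the block or against it and others did not, and their part in it was not tested. In bulk RNA fewer cells of a type and less RNA per cell cannot be told apart. The 5 measured neutrophil primary granule markers ran against it: their mean deviation was -1.48 in ΔOM-LZ replicate 1, -1.09 in CALM-AF10 replicate 1, -0.42 in MIG replicate 3 and -0.34 in minimal fusion replicate 1, the arrays high in interferon genes, and 0.78 in ΔOM-LZ replicate 2 and 0.76 in CALM-AF10 replicate 2, the arrays low in them. It was also 0.73 in minimal fusion replicate 2 and 0.51 in MIG replicate 1, where the mean of the set was -0.16 and -0.05 (r = -0.78 over the arrays). The mean level of these markers ranged from 11.72 to 12.65 in MIG, 11.06 to 12.91 in CALM-AF10, 10.67 to 12.92 in ΔOM-LZ and 11.80 to 12.87 in the minimal fusion. The 7 mast cell and basophil markers were highest in MIG replicate 3 (1.35) and ΔOM-LZ replicate 1 (1.07). They followed the mean of the set only in part (r = 0.49), with 0.49 in ΔOM-LZ replicate 2 and -0.39 in minimal fusion replicate 1. Their mean level ranged from 10.30 to 11.89 in MIG, 9.98 to 10.91 in CALM-AF10, 10.55 to 11.61 in ΔOM-LZ and 9.59 to 10.15 in the minimal fusion. The 6 megakaryocyte markers were likewise high in MIG replicate 3 (1.27), in MIG replicate 2 (1.17) and in ΔOM-LZ replicate 1 (1.15), with mean levels of 8.79 to 10.24 in MIG, 8.23 to 9.09 in CALM-AF10, 8.46 to 10.12 in ΔOM-LZ and 8.02 to 8.62 in the minimal fusion. Their mean deviation was 0.11 in ΔOM-LZ replicate 2 and -0.35 in minimal fusion replicate 1 (r = 0.53 with the mean of the set). None of the markers of these lists was dim. The 7 stem and progenitor markers, none dim, had a mean deviation of 0.28 in MIG replicate 3 and -0.77 in ΔOM-LZ replicate 2, with levels of 8.82 to 9.46 in MIG, 8.85 to 9.65 in CALM-AF10, 8.41 to 9.17 in ΔOM-LZ and 9.46 to 9.75 in the minimal fusion. Their deviation was 0.54 in minimal fusion replicate 2, where the mean of the set was -0.16 (r = 0.63 over the arrays). The 10 late neutrophil markers, of which Mmp9 was dim, had -0.62 in MIG replicate 3 and 0.87 in ΔOM-LZ replicate 2 (r = -0.61 with the mean of the set). They also had 0.87 in ΔOM-LZ replicate 3 and 0.61 in MIG replicate 2, where the mean of the set was -0.10 and -0.01. In ΔOM-LZ replicate 1 they had 0.19, with the mean of the set at 0.14. Their levels were 8.96 to 10.18, 8.98 to 9.77, 9.76 to 10.44 and 8.69 to 9.27 in the same order of constructs. The 10 monocyte and macrophage markers, of which Mrc1, C1qa and C1qb were dim, did not follow the block (r = -0.03 with the mean of the set). They were highest in ΔOM-LZ replicate 1 (1.47) and MIG replicate 2 (1.10) and lowest in minimal fusion replicate 1 (-0.66). Their levels were 8.12 to 9.73, 8.29 to 8.70, 8.60 to 10.09 and 7.96 to 8.12 in that order.

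Plasmacytoid dendritic cells, the main makers of type I interferon, were followed by 6 markers measured, of which Siglech, Ccr9 and Spib were dim; another of them, Bst2, is itself a member. Their mean deviation ran from -0.42 in minimal fusion replicate 2 to 0.32 in CALM-AF10 replicate 3. It was -0.32 in ΔOM-LZ replicate 2 and -0.24 in CALM-AF10 replicate 2, the lowest arrays of the interferon genes, and 0.10 in MIG replicate 3, the highest, and it had r = 0.72 with the mean of the set. Cox6a2 had the widest range of these markers, 6.93 to 10.65 (r = 0.76), while Siglech, Ccr9 and Spib had r of -0.38, -0.48 and -0.30. The mean level ranged from 7.05 to 7.33 in MIG, 6.93 to 7.49 in CALM-AF10, 6.85 to 7.31 in ΔOM-LZ and 6.75 to 7.38 in the minimal fusion. Of 9 fibroblast markers, which the producer cells could bring, Postn, Sparc, Lox and Fstl1 were dim, and the mean deviation was 0.00 in MIG replicate 3 and 0.03 in ΔOM-LZ replicate 2, the arrays at either end of the interferon block, and highest in MIG replicate 2 (0.40). The fibroblast mean level ranged from 6.89 to 7.29 in MIG, 6.72 to 6.84 in CALM-AF10, 6.84 to 6.95 in ΔOM-LZ and 6.76 to 6.95 in the minimal fusion. The mean of the set also followed the first principal component of all genes, which held 41.7% of the variance (r = 0.87 in size over 12 arrays).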

How the data were processed

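Gene expression was measured in 12 bone marrow cultures, 3 for each of 4 retroviral constructs. The authors deposited 1 log2 value per probe set and array. Expression Console of Affymetrix is named in the submitters' processing notes, and the sources used here do not give its summarization or normalization. That the scale is log2 follows from the range (2.883 to 14.272; array medians 6.581 to 6.686), and nothing was renormalized. Precision is limited by the number of arrays.

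Of 35556 probe sets, 23410 had a gene symbol in the platform annotation and were fitted with limma 3.58.1 in R 4.3.3 (1 mean per construct, 8 residual degrees of freedom, lmFit and eBayes). Tests were two-sided, with Benjamini-Hochberg adjustment over the 23410 probe sets. The fit was tested on simulated data. The brightest of a gene's probe sets with 1 symbol (21789 probe sets, 19938 genes) stood for it.

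Same-numbered arrays deviated together for CALM-AF10 and ΔOM-LZ (r = 0.72, 0.79 and 0.63), a hint from the data since the labels are silent, so a paired fit is given there. All 12 values are given for the gene of each role with the highest F statistic and the one with the widest range. Of other lists, genes with the 2 highest or 2 lowest statistics of a comparison could be named, and of genes outside all lists the 8 most like and 8 most unlike the mean of the set; others were picked after their values were seen. Members and lists were chosen with earlier results of these data known. Promoters are from RefSeq (GRCm38.p6). Alternatives covered normalization, variance model, samples, probe sets, a replicate block and leaving out each array.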

Additional observations from a re-analysis of the deposited data

How the results depend on the processing

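The number of interferon response genes past the adjusted threshold was 0 in all 6 comparisons and in the F test under each of the 21 alternatives that apply to it: median centring, quantile normalization, trend and robust variance, only the 2 groups compared, all probe sets, brighter probe sets only (32 of the 41 genes), the mean of a gene's probe sets, a replicate block over the 12 arrays, the paired fit of 6 arrays, and leaving out each array. With the replicate block 0 of the 41 genes passed, so no call on them changed. Over all probe sets the block over 12 arrays called 1, 3 and 0 for the minimal fusion against MIG, ΔOM-LZ and CALM-AF10, where the fit without it called 8, 4 and 1. The paired fit was added after the data were seen. No median over the 41 genes moved by more than 0.27, the SD of their mean within a construct. Without 1 array the medians ran from -0.25 to 0.06 for CALM-AF10 against MIG, -0.36 to -0.11 for ΔOM-LZ, -0.23 to 0 for the minimal fusion, 0.02 to 0.24 for CALM-AF10 against ΔOM-LZ, -0.03 to 0.19 for the minimal fusion against ΔOM-LZ and -0.13 to 0.10 for the minimal fusion against CALM-AF10. Dim genes are limited by signal over background, which the deposited values do not give.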

Other observations

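Among genes in none of the interferon or antiviral lists, those most like the mean of the 41 genes over the 12 arrays were Slfn10-ps, a pseudogene of the interferon-inducible Schlafen family, Hscb, a gene of iron-sulphur cluster assembly, Rdm1, Gimap1, Rcn3, Ahi1, the RNA helicase gene Ddx17 and Armcx2, each with r of 0.96 or 0.97. Slfn10-ps was at 7.92, 8.05 and 8.62 in MIG, 8.50, 7.30 and 8.21 in CALM-AF10, 8.27, 7.19 and 7.75 in ΔOM-LZ and 8.28, 7.51 and 7.67 in the minimal fusion, and ranked the arrays in the same order as the mean of the set. Rcn3, a calcium-binding protein gene of the endoplasmic reticulum, covered the widest range of the 8, from 7.09 in ΔOM-LZ replicate 2 to 9.99 in MIG replicate 3.

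Genes that ran against the set most closely were Tor1a, Dpp9, Gapt, Slc16a6, Pik3r5, Sh3tc1, Gsr and Zdhhc12, with r of -0.96 or -0.97. Gsr, which encodes glutathione reductase, ran from 10.46 in MIG replicate 3 to 11.77 in ΔOM-LZ replicate 2, and Gapt, an adaptor gene of blood cells, from 8.86 to 11.06 between the same arrays. Of all genes outside the set 3.5% had r of at least 0.8 with its mean and 4.09% had r of -0.8 or below, so these 16 genes are the ends of a broad pattern of the arrays and not particular to the interferon genes. The genes were picked for r among 19897, which is a description of 12 arrays with no test.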
